A study of Mus musculus with 4 samples.

Results

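The genes described here are 10 genes of dying-cell uptake and resident macrophage identity (Gas6, Mertk, Axl, Stab1, Mrc1, Cd163, Igf1, Fcrls, Pf4 and Vcam1) followed through the macrophage subsets of 2 organs and 2 genotypes. The genes were matched by symbol, and each symbol occurred once among the 32285 genes counted, in all 4 libraries. They had been chosen with results of the same libraries known, among them levels in the tumour macrophages of knockout and wild-type mice, so that contrast is given as a description and supports nothing. The libraries were droplet single-cell RNA libraries of sorted cells from 8-week-old male mice of the C57BL/6 background, taken 18 days after B16-F10 melanoma cells were placed under the skin. B16-F10 is a transplantable melanoma line of that strain. The 4 groups were tumour of wild-type mice (WT), tumour of Ndufa4-deficient mice (written KO), spleen of the same WT mice and spleen of the same KO mice, so all animals bore a tumour. Ndufa4 encodes a small subunit of mitochondrial cytochrome c oxidase. The sources used here do not say how the gene was inactivated or in which cells. Tumour cells were sorted for CD45, a marker of all leukocytes, and spleen cells for CD45 with CD11b, a myeloid integrin. Each group was 1 library into which cells of 3 mice had been pooled in equal numbers (the protocol text allows up to 4). No difference between genotypes could therefore be tested, no p-value is given, and every interval printed is for counting error alone and leaves out how mice and cells vary.

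Macrophages clear dying cells by efferocytosis. A dying cell exposes phosphatidylserine, bridging proteins such as Gas6 coat it, and receptor tyrosine kinases of the TAM family (Tyro3, Axl and Mertk) on the macrophage bind the bridge and start engulfment. Macrophages settled in a tissue also carry scavenger and lectin receptors (Stab1, Mrc1, Cd163) and release mediators such as Igf1 and Pf4, and red pulp macrophages of the spleen, which recycle ageing red blood cells, are known for Vcam1.

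The start regions of 5 of the genes are shown because the levels of these genes set them against each other: Stab1, Fcrls, Gas6 and Mrc1 were far lower in the KO tumour macrophages and Axl was not. Each run covers 250 bases before to 50 bases after the start of the gene in RefSeq on the GRCm38.p6 build, 5′ to 3′ on the strand of the gene. The windows are chr14:31168592-31168891 for Stab1 (minus strand), chr3:87263475-87263774 for Fcrls (minus strand), chr2:14229164-14229463 for Mrc1 (plus strand), chr8:13494486-13494785 for Gas6 (minus strand) and chr7:25788684-25788983 for Axl (minus strand). Capitals mark matches on either strand to GAGGAA (or its reverse TTCCTC), the core bound by the myeloid factor PU.1, to TGCTGA, part of the site bound by MAF factors, and to TATAAA, the TATA box.
Stab1: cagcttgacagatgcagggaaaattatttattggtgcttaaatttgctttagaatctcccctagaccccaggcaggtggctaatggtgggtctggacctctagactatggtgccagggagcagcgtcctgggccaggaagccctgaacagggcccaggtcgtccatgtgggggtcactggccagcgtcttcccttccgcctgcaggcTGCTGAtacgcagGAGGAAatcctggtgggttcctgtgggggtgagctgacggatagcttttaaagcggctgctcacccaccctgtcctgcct
Fcrls: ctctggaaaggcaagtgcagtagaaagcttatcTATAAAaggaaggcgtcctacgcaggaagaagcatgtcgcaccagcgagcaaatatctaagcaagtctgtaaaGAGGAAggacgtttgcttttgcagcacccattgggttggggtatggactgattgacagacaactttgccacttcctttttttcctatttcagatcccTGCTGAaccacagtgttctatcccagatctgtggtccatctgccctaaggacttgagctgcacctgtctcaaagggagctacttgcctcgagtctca
Mrc1: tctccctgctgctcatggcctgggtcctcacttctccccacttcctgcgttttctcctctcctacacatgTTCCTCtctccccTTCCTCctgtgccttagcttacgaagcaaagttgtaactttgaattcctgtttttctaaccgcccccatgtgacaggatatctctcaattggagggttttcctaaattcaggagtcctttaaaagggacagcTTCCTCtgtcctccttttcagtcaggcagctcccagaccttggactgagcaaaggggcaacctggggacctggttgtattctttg
Gas6: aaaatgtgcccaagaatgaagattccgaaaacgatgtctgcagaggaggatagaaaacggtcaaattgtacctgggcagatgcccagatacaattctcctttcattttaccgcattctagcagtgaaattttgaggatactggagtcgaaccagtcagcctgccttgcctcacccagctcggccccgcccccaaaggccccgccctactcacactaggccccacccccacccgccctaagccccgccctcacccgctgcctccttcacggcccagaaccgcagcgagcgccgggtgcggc
Axl: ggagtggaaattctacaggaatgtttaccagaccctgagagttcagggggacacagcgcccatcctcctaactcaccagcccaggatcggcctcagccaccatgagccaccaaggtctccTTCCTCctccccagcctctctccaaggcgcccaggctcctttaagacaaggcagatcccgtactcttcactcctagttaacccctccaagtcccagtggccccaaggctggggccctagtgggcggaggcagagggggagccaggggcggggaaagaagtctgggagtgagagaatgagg
The Stab1 window held the PU.1 core and the MAF core, with first bases at −30 and −43 from the start of the gene, and the Fcrls window held both at −144 and −47. Mrc1 held the PU.1 core 3 times (at −180, −167 and −35), Axl held it once (at −130), and Gas6 held no match to any motif searched. Of the 9 members with a RefSeq window, 6 held the PU.1 core (also Igf1 and Pf4) against 28.3% of all 32851 windows, and 2 held the MAF core against 19.5%. TATAAA was found in 1 member, Fcrls, and in 13.6% of all windows. The letters TTCNNNGAA of the gamma-activated site (8.3% of all windows) and the interferon-stimulated response element (3.44%) were found in no member. No matches overlapped. The PU.1 core was thus present in genes that were low in KO and in Axl, which was not, and a match describes the letters only.

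Barcodes numbered 4798 in the WT tumour, 6122 in the KO tumour, 8107 in the WT spleen and 7789 in the KO spleen, and their unique molecular identifiers (UMIs, counted RNA molecules) 47754169, 63560706, 57272311 and 46499361. Filtering kept 3857 and 4394 tumour cells with medians of 7190 and 10317.5 UMIs, and 7087 and 6711 spleen cells with medians of 4666 and 4352 UMIs. Pairs of libraries shared 6 to 22 barcode sequences. Ndufa4 itself checked the labels: its level, in counts per 1000000 UMIs (CPM), was 327 in WT and 15.7 in KO tumour cells, and 269 in WT and 0.639 in KO spleen cells. Of the 872 Ndufa4 UMIs of the KO tumour, 622 were in 28 cells with melanoma markers. Cell classes were named from marker genes and mean cells like that type.

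Tumour mononuclear phagocytes, 1351 WT and 977 KO cells, fell into 5 clusters. Monocytes led by Ace and Adgre4 numbered 209 WT and 281 KO cells. Cells between monocyte and macrophage, led by Cfb, Fn1 and Cxcl9, numbered 535 and 510. Macrophages led by Arg1 and Mmp12 numbered 381 and 73. A pair of clusters led by the complement genes C1qa, C1qb and C1qc and by Ccl8 was combined, after its values had been seen, into C1q-high macrophages, with 226 WT cells (5.86% of the library) and 113 KO cells (2.57%). The shallower cluster, in UMIs per cell, had 118 WT and 82 KO cells, and the deeper cluster 108 and 31. The 31 KO cells are under the minimum of 50 set for ratios within a class, and the deeper cluster is given as an exception. Igf1, Vcam1, Fcrls and Stab1 were among the leading genes of these clusters, although no member was used to build them. In the spleen, red pulp macrophages numbered 151 WT and 135 KO cells, and their markers Spic and Cd5l were at 393 and 414 CPM in WT and at 720 and 501 CPM in KO.

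C1q-high macrophages held 3712032 WT and 839676 KO UMIs, with median depths of 9134 and 2851 UMIs per cell. Their summed T cell markers were at 46.1 (WT) and 317 (KO) CPM (all 10 detected in both), and their summed neutrophil markers at 525 CPM (9 of 12 detected) and 63.1 CPM (4 of 12 detected). The part of this unequal depth and of these other cells' RNA in the results was not tested. Red pulp macrophages were shallow, with 340620 and 333216 UMIs in all and medians of 1242 and 1380 UMIs, and the deepest 10% of their cells gave 39.0% and 37.4% of the UMIs. Their barcodes also held neutrophil markers at 4512 (WT) and 5408 (KO) CPM and erythroid markers at 517 and 1185 CPM, and the part of that RNA in the results was not tested either.

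**Figure D1:**
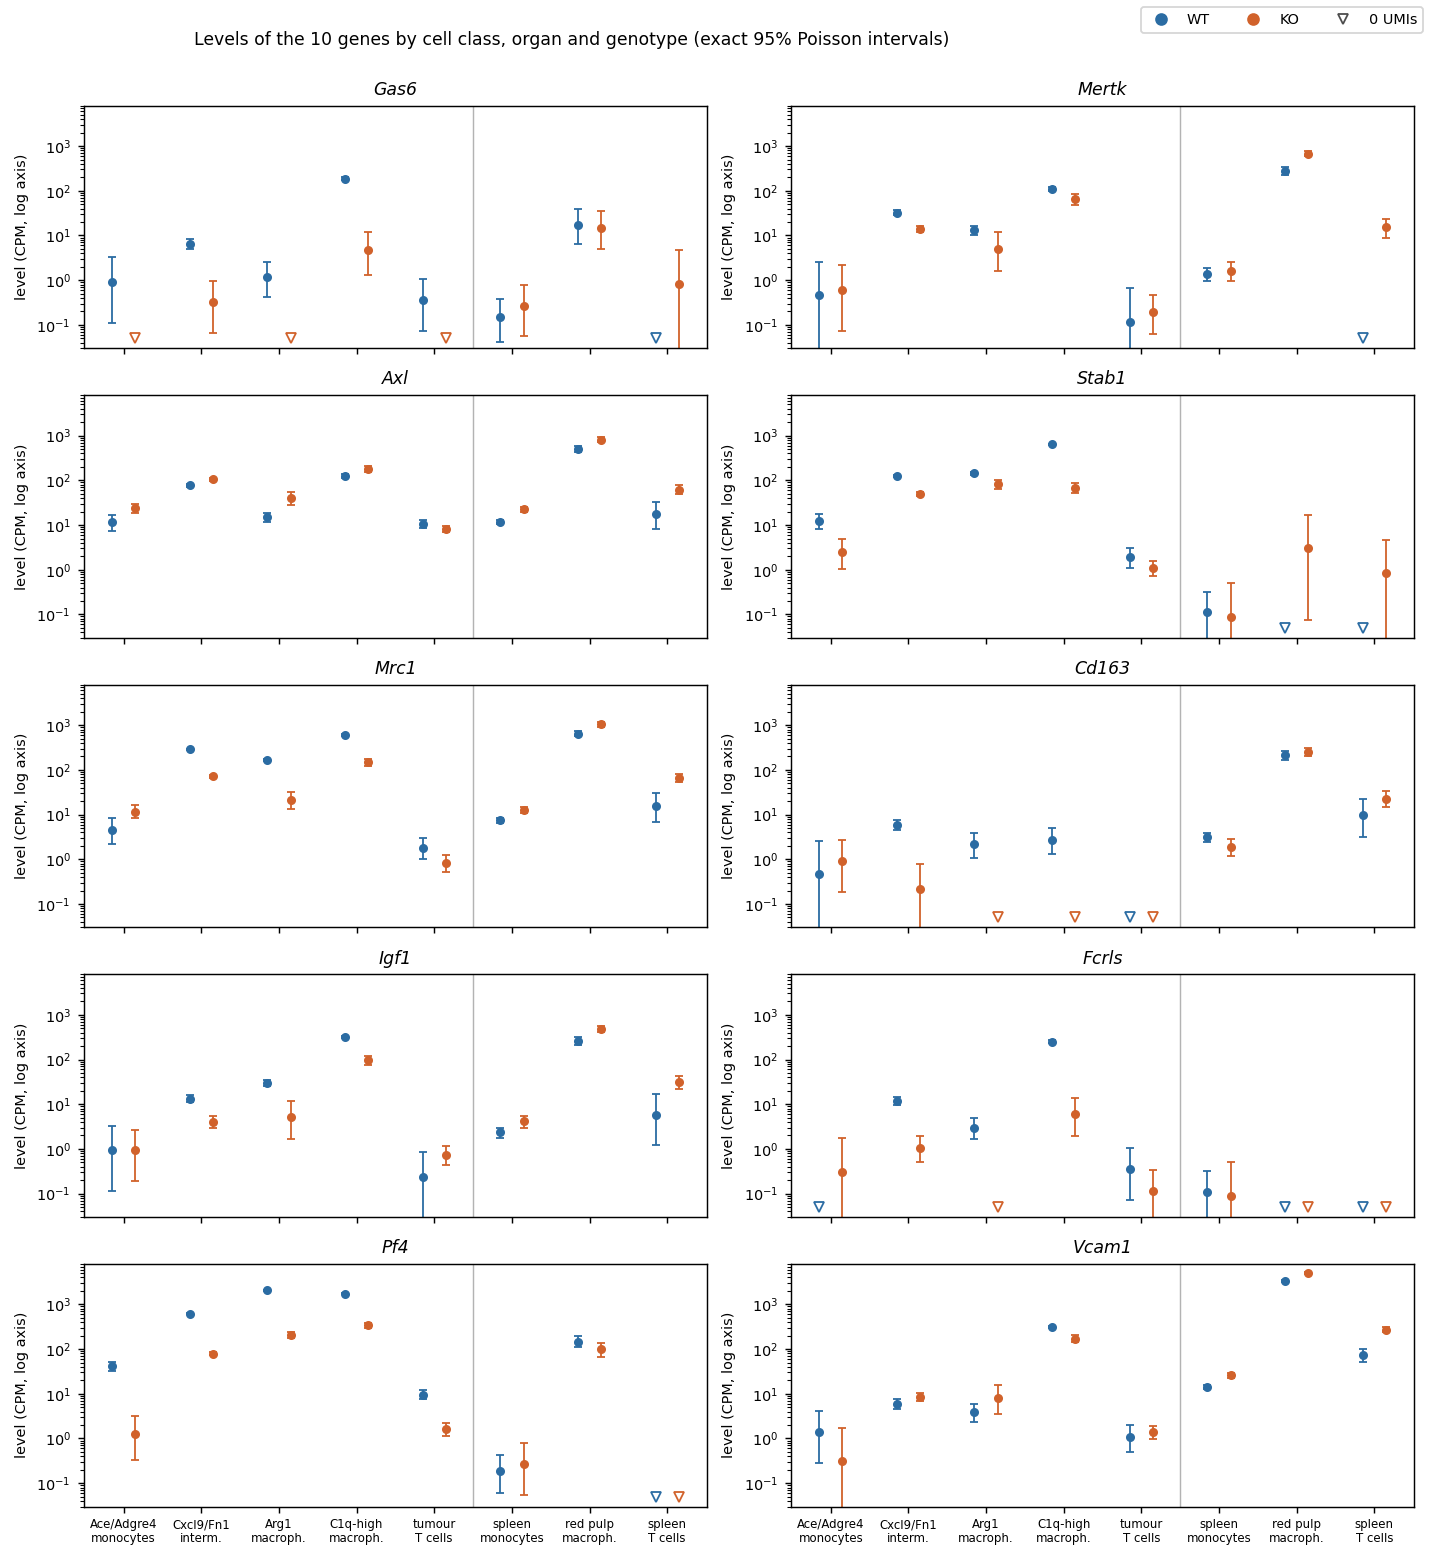
Level of each of the 10 genes (CPM, log axis) in 5 tumour classes and, right of the grey line, 3 spleen classes. Blue points are WT and orange points KO, 1 pooled library each, with exact 95% Poisson intervals (cut at the lower edge of the plot), and open triangles mark 0 UMIs. In C1q-high macrophages the WT point lies above the KO point for every gene but Axl, while red pulp macrophages show KO above WT for Mertk, Axl, Mrc1, Igf1 and Vcam1.

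Gas6 (ENSMUSG00000031451, chr8:13465374-13494490, minus strand), the secreted bridge between phosphatidylserine and the TAM receptors, was found mainly in C1q-high macrophages in the WT tumour, which gave 89.6% of the library's 770 Gas6 UMIs. It stood at 186 CPM (690 UMIs) in WT and 4.76 CPM (4 UMIs) in KO C1q-high macrophages, 39.0-fold lower, with a log2 ratio of KO to WT of −5.29 [95% interval −7.17, −3.92]. The cells between monocyte and macrophage held 62 UMIs in WT and 3 in KO (6.36 and 0.320 CPM), and the Arg1 macrophages held 6 and 0. Red pulp macrophages held 6 WT and 5 KO UMIs (17.6 and 15 CPM), too few to show a difference at this depth. Pros1, the other TAM ligand, was at 21.8 and 31.0 CPM in C1q-high macrophages, with a log2 ratio of 0.50 [−0.19, 1.16], so the ratios of the ligands lay far apart.

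Mertk (ENSMUSG00000014361, chr2:128698956-128802894, plus strand), the TAM receptor best known for engulfment by macrophages, went different ways in the organs. In C1q-high macrophages it was at 107 (WT) and 65.5 (KO) CPM (399 and 55 UMIs), a log2 ratio of −0.71 [−1.15, −0.31]. The cells between monocyte and macrophage had 32.5 and 14.1 CPM, 2.31-fold lower in KO. In red pulp macrophages Mertk was at 282 (WT) and 681 (KO) CPM, 2.42-fold higher, with a log2 ratio of 1.27 [0.92, 1.63]. Without a limit on mitochondrial reads the red pulp ratio was 0.41 and with equal weight for each cell 0.80, both under 2-fold, and with every cell thinned to 1000 UMIs the C1q-high ratio was −1.88.

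Axl (ENSMUSG00000002602, chr7:25757273-25788705, minus strand), the TAM receptor associated with inflamed tissue and interferon, was the member that was not lower in the KO tumour over all phagocytes. Its levels in WT and KO were 11.5 and 24 CPM in monocytes, 77.3 and 106 CPM in the cells between monocyte and macrophage, 15 and 39.4 CPM in Arg1 macrophages, and 125 and 179 CPM in C1q-high macrophages. Each of these 4 subsets was higher in KO, by 2.08-fold, 1.37-fold, 2.62-fold and 1.43-fold. Within the C1q-high class the direction was not shared: the shallower cluster had a log2 ratio of −0.44 [−1.38, 0.41] and the deeper cluster 0.74 [0.45, 1.03]. Red pulp macrophages had 514 and 813 CPM, a log2 ratio of 0.66 [0.38, 0.95], which was −0.06 without a limit on mitochondrial reads. Tyro3, the remaining TAM receptor, had 0 UMIs in C1q-high and in red pulp macrophages of both genotypes.

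Stab1 (ENSMUSG00000042286, chr14:31139013-31168641, minus strand), encoding stabilin-1, a scavenger receptor that also binds phosphatidylserine, was found almost wholly in the tumour. It stood at 641 (WT) and 69.1 (KO) CPM in C1q-high macrophages (2378 and 58 UMIs), 9.27-fold lower. The difference was 5.07-fold in monocytes (12.4 and 2.46 CPM, 27 and 8 UMIs) and smaller in the other subsets, with 126 and 49.2 CPM in the cells between monocyte and macrophage (2.56-fold lower) and 145 and 81.9 CPM in Arg1 macrophages (1.77-fold lower). Red pulp macrophages held 0 WT and 1 KO UMI, and spleen monocytes 3 and 1.

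Mrc1 (ENSMUSG00000026712, chr2:14229392-14332057, plus strand) encodes CD206, a mannose receptor that takes up glycoproteins. Its WT and KO levels were 596 and 149 CPM in C1q-high macrophages, 291 and 71.4 CPM in the cells between monocyte and macrophage, and 168 and 21.2 CPM in Arg1 macrophages. KO was 4.00-fold, 4.07-fold and 7.90-fold lower in these subsets, so the difference was present outside the C1q-high cells too. In monocytes 10 WT and 38 KO UMIs gave a log2 ratio of 1.34 [0.31, 2.51], which turned to −2.05 with a mitochondrial limit of 20% and to −0.93 with another clustering seed, so no direction is given there. Red pulp macrophages had 646 (WT) and 1041 (KO) CPM, a log2 ratio of 0.69 [0.44, 0.94] that was 0.07 without a limit on mitochondrial reads.

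Cd163 (ENSMUSG00000008845, chr6:124304656-124330527, plus strand), the haemoglobin scavenger receptor, had its highest level among the named classes in red pulp macrophages, at 214 (WT) and 255 (KO) CPM, a log2 ratio of 0.25 [−0.22, 0.72]. These held 73 of the 342 Cd163 UMIs of the WT spleen, while type 2 dendritic cells held 104 (22.9 CPM, beside 14.8 CPM in the KO spleen) and monocytes 83 (3.08 and 1.88 CPM). The WT tumour held 96 UMIs in all, of which 60.4% were in the cells between monocyte and macrophage, where 58 WT and 2 KO UMIs were counted. Those 58 UMIs came from 1.87% of 535 cells. C1q-high macrophages held 10 WT UMIs and 0 KO UMIs, and at this depth a count of 0 allows no ratio. Over all tumour phagocytes 80 WT and 5 KO UMIs gave a log2 ratio of −3.48 [−5.14, −2.20], but −0.75 with every cell thinned to 1000 UMIs.

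Igf1 (ENSMUSG00000020053, chr10:87858265-87937042, plus strand), a growth factor that macrophages release during tissue repair, was at 323 (WT) and 95.3 (KO) CPM in C1q-high macrophages (1200 and 80 UMIs), 3.39-fold lower. Arg1 macrophages had 30.1 and 5.05 CPM, and the cells between monocyte and macrophage 13.2 and 4.06 CPM, both lower in KO. In red pulp macrophages the levels were 261 (WT) and 480 (KO) CPM, a log2 ratio of 0.88 [0.50, 1.27]. That ratio was −0.29 with every cell thinned to 1000 UMIs and 0.15 with equal weight for each cell, so the spleen direction changed with the processing.

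Pf4 (ENSMUSG00000029373, chr5:90772435-90773383, plus strand) encodes the chemokine CXCL4, best known from platelets and also made by resident macrophages. The WT and KO levels were 1731 and 339 CPM in C1q-high macrophages, 2057 and 207 CPM in Arg1 macrophages, 611 and 78.5 CPM in the cells between monocyte and macrophage, and 41.0 and 1.23 CPM in monocytes. KO was 5.10-fold, 9.93-fold, 7.78-fold and 33.4-fold lower, and Pf4 was the only member counted as at least 2-fold lower in all 4 of these subsets. The monocyte value rested on 89 WT UMIs from 16 of 209 cells and on 4 KO UMIs. In the tumour, type 1 dendritic cells held 40.7 (WT) and 5.90 (KO) CPM, and type 2 dendritic cells 29.8 and 1.09 CPM. The part of other cells' RNA in the monocyte level was not tested. The C1q-high clusters differed in size of effect, with 2094 and 861 CPM in the shallower (2.43-fold lower) and 1666 and 148 CPM in the deeper (11.2-fold lower). Among platelet markers, Itga2b, Gp1bb, Gp9, Tubb1, Treml1 and Gp6 had 0 UMIs in C1q-high and in Arg1 macrophages of both genotypes, Gp1ba had at most 1 and Clec1b 2 to 7. Ppbp, which encodes the platelet chemokine CXCL7, had 2964 WT and 2 KO UMIs in Arg1 macrophages and 13 and 0 in C1q-high macrophages. In red pulp barcodes all 10 platelet markers were detected in WT and 8 in KO, at 429 and 288 CPM, beside 50 and 33 Pf4 UMIs, and their part in the spleen Pf4 level was not tested. Those Pf4 UMIs came from 4 of 151 WT and 2 of 135 KO cells. Over the other settings tried, the red pulp log2 ratio of Pf4 ran from −3.63 to −0.29.

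Fcrls (ENSMUSG00000015852, chr3:87250758-87263738, minus strand), encoding a scavenger receptor related to Fc receptors and known from microglia and other resident macrophages, was like Gas6. C1q-high macrophages gave 86.6% of the WT tumour's 1082 UMIs, and stood at 252 (WT) and 5.95 (KO) CPM (937 and 5 UMIs), 42.4-fold lower, with a log2 ratio of −5.41 [−7.03, −4.18]. The cells between monocyte and macrophage had 116 WT and 10 KO UMIs, 11.1-fold lower. Red pulp macrophages of both genotypes held 0 UMIs.

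Vcam1 (ENSMUSG00000027962, chr3:116109949-116129688, minus strand), an adhesion molecule that binds integrin alpha-4, was at its highest in red pulp macrophages, with 3394 (WT) and 4997 (KO) CPM, a log2 ratio of 0.56 [0.45, 0.67] that was 0.03 without a limit on mitochondrial reads. In the WT tumour 91.4% of its 1277 UMIs were in C1q-high macrophages. These had 314 (WT) and 171 (KO) CPM, a log2 ratio of −0.87 [−1.13, −0.62]. The deeper C1q-high cluster had −1.11 [−1.43, −0.81], whereas the shallower cluster had −0.01 [−0.51, 0.47]. In the cells between monocyte and macrophage Vcam1 was low, at 5.95 and 8.54 CPM. In Arg1 macrophages 20 WT and 8 KO UMIs (3.91 and 8.09 CPM) put it 2.07-fold higher in KO, with a log2 ratio of 1.05 [−0.34, 2.29] whose interval includes 0.

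Counted over all tumour phagocytes, 9 of the 10 members were at least 2-fold lower in KO and 0 higher, against 6.94% of the 12253 genes with 20 or more UMIs that were lower and 5.16% that were higher. The members' median log2 ratio was −2.68, that of all these genes −0.01. Because the members were chosen by levels that include this contrast, nothing is read from that excess. In C1q-high macrophages 6 of the 9 members with 20 or more UMIs were lower (9.95% of 9459 genes lower and 5.44% higher, median −2.0 for the members and −0.13 for all genes, so the scale itself is shifted by that much). The Arg1 macrophages had 4 of 7 lower and 2 higher (7.37% lower and 5.34% higher over all genes), and the cells between monocyte and macrophage 8 of 10 lower (4.02% lower and 4.19% higher). Each C1q-high cluster alone had 6 of 8 lower (the shallower, 11.3% lower and 8.16% higher over all genes) and 7 of 9 lower (the deeper, 9.97% and 5.85%). The deeper cluster rests on only 31 KO cells. The class of all macrophages had 6 of 10 lower (7.17% lower and 4.98% higher), and the monocytes 2 lower and 2 higher of 4 (2.74% and 2.93%).

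The macrophage markers of the C1q-high cells were near equal between genotypes, but several of them picked out the class, so nothing is read from that. C1qa was at 4986 (WT) and 4926 (KO) CPM, Ccl8 at 831 and 775 CPM, and Ms4a7 at 1199 and 1153 CPM. Of 12 macrophage markers, 0 were at least 2-fold lower in KO, with a median log2 ratio of −0.04 and a range from −0.66 for Apoe to 0.75 for Fcgr1. C1qa, C1qb, C1qc, Ccl8, Ms4a7, Apoe and Trem2 were among the leading genes of these clusters. Over all phagocytes Ccl8 was 2.72-fold and Trem2 2.37-fold lower in KO. Ndufa4 was at 412 (WT) and 39.3 (KO) CPM in C1q-high macrophages, a residue of 33 UMIs. In the KO tumour it was at 1293 CPM in melanoma cells and 3.05 CPM in T cells. The source of the residue was not tested.

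**Figure D2:**
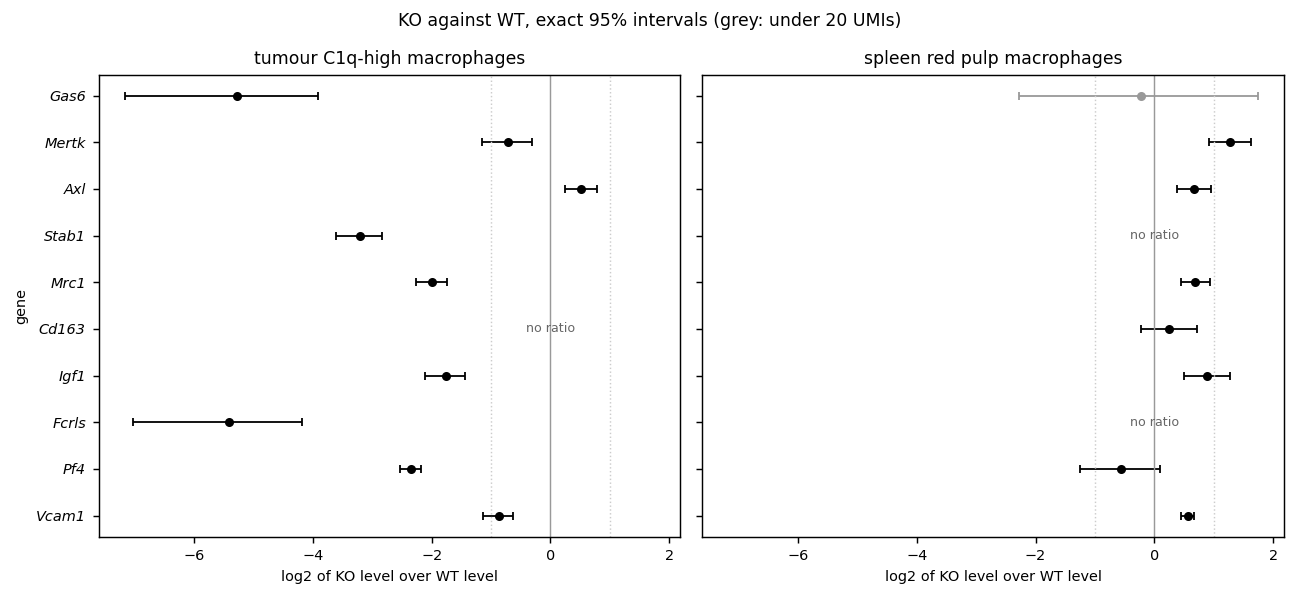
Log2 ratio of the KO level to the WT level (x axis) for each gene (y axis) in tumour C1q-high macrophages (left) and spleen red pulp macrophages (right), with exact 95% intervals for counting error. Dotted lines mark 2-fold, grey points rest on under 20 UMIs, and no ratio is drawn where counts were at or near 0. The tumour points reach −5.41 for Fcrls, and the spleen points lie between −0.57 for Pf4 and 1.27 for Mertk. The spleen Pf4 point rests on UMIs from 4 WT and 2 KO cells.

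Part of the pooled difference went with the mix of subsets. Counted as cells, Arg1 macrophages were 28.2% of the phagocytes in WT and 7.47% in KO, and the deeper C1q-high cluster 7.99% and 3.17%. The cells between monocyte and macrophage were 39.6% and 52.2%. The weights used below were shares of the phagocytes' UMIs instead. By UMIs, Arg1 macrophages were 24.7% and 6.85%, the deeper C1q-high cluster 15.2% and 4.25%, and the cells between monocyte and macrophage 47.0% and 64.8%. Giving the KO clusters the weights of the WT mix left 7 members at least 2-fold lower: Gas6 (−5.37), Fcrls (−4.86), Cd163 (−4.29), Pf4 (−3.05), Mrc1 (−2.08), Stab1 (−1.88) and Igf1 (−1.87). In this weighting a count of 0 stayed 0 and was not set to the floor of 3 counts. Cd163 in KO was at 0.346 CPM before and 0.197 CPM after weighting. Whether Cd163 belongs among the 7 therefore depends on how counts of 0 are set. Mertk stood at −0.85 and Vcam1 at −0.77. With WT levels in every cluster and only the KO mix, Vcam1 was at −1.45, Gas6 at −1.31, Igf1 at −1.26, Fcrls at −1.21 and Mrc1 at −0.29. For Vcam1 the mix alone thus gave a value nearer to the pooled −1.90 than the levels within clusters did, and for Mrc1, at −2.27 pooled, the reverse held.

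**Figure D3:**
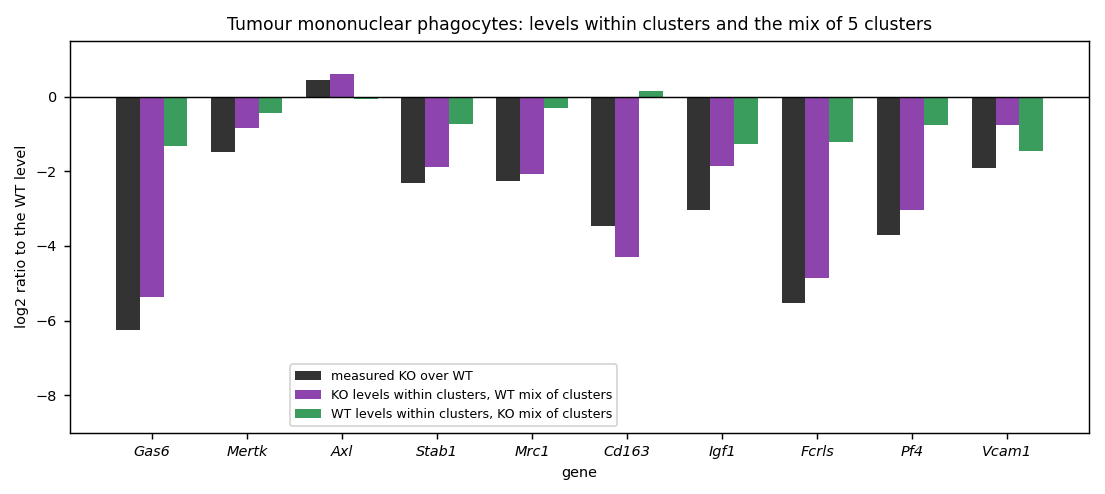
Log2 ratio to the WT level (y axis) of each gene (x axis) over the 5 clusters of tumour phagocytes. Dark bars are the measured KO to WT ratios, purple bars use KO levels within clusters at the WT mix, and green bars use WT levels at the KO mix. Purple bars are longer than green ones for every gene but Vcam1, where the purple bar is −0.77 and the green bar −1.45.

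Single cells were compared after each was thinned to 2000 UMIs, which left out 32 of 226 WT and 43 of 113 KO C1q-high cells. The summed UMIs of the 10 members had a mean of 8.40 and a median of 8 in the 194 WT cells, and a mean of 2.06 and a median of 1 in the 70 KO cells. Cells with none made up 4.12% of WT and 45.7% of KO, and cells with 3 or more members detected 69.1% and 10%. The 10% of cells with the highest sums held 26.0% of these UMIs in WT and 52.8% in KO. Pf4 was seen in 81.4% of WT and 22.9% of KO cells, Mrc1 in 51.5% and 20%, Stab1 in 44.3% and 5.71%, and Igf1 in 37.1% and 12.9%. Fcrls was seen in 28.4% and in 0 of 70 (exact 95% upper limit 5.13% for cells with a UMI at this depth, not for cells expressing it; unthinned, 55.3% of WT and 2.65% of KO cells held a UMI), and Gas6 in 24.7% and 1.43%. The shares of Mertk (12.9% and 14.3%), Axl (17% and 18.6%) and Vcam1 (27.3% and 20%) had overlapping 95% intervals. Tumour T cells, which should lack these genes, were thinned to the same depth (unthinned medians 8505 and 10113 UMIs), and there Pf4 was seen in 1.56% of WT and 0.372% of KO cells, Stab1 in 0.283% and 0.266%, and Gas6 in 0 of 707 and 0 of 1882. Without thinning, Pf4 was seen in 88.1% and 31.0% of C1q-high cells and Gas6 in 51.8% and 3.54%.

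**Figure D4:**
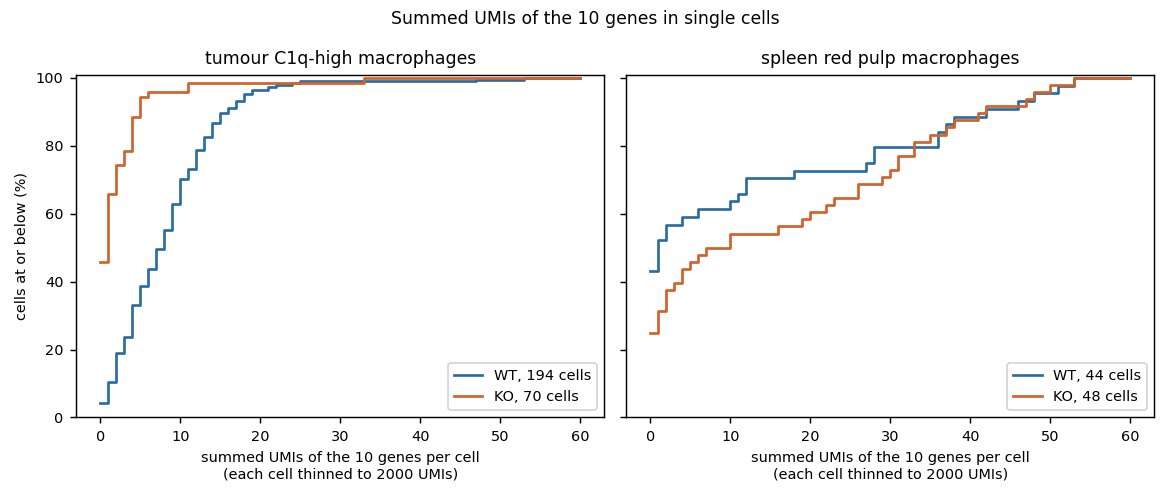
Share of cells (y axis, percent) at or below a given sum of the 10 genes' UMIs (x axis) with each cell thinned to 2000 UMIs, in tumour C1q-high macrophages (left) and spleen red pulp macrophages (right). Blue is WT and orange KO, and the cell numbers stand in the keys. The KO curve lies to the left of the WT curve in the tumour, with medians of 1 and 8, and mostly to its right in the spleen, with medians of 8.5 and 1.

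Within the deeper WT C1q-high cluster (108 cells, all UMIs used, so depth is shared by all genes) some members were found in the same cells. Spearman correlations across cells were 0.62 for Gas6 with Igf1, 0.60 for Igf1 with Fcrls, 0.58 for Gas6 with Fcrls and 0.55 for Gas6 with Mrc1. Mertk with Axl was at −0.00, and Mertk with Mrc1 at −0.02. Both receptors had a UMI in 90 and 94 of the 108 cells. These are descriptions of 1 library.

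In spleen red pulp macrophages Mertk, Axl, Mrc1, Igf1 and Vcam1 were higher in KO, with counting intervals above 0 under the settings used here. Over the other settings tried, however, their lowest log2 ratios were 0.41, −0.06, 0.07, −0.29 and 0.03. Of 7 members with 20 or more UMIs in red pulp macrophages, 0 were at least 2-fold lower in KO (3.77% of 5351 genes) and 1, Mertk, was higher (6.41%). The median of these members was 0.66 and that of all genes 0.03. Macrophage markers were also higher in KO here, with a median of 0.51 over the 11 that had 20 or more UMIs, and their summed level was 5804 (WT) and 8403 (KO) CPM. Their part in the members' difference was not tested. Per cell, after thinning, the members' sum had a mean of 12.5 in 44 WT and 16.4 in 48 KO cells, and 43.2% of WT and 25% of KO cells had none. The number of cells with enough UMIs was small: 107 of 151 WT and 87 of 135 KO cells were too shallow to enter.

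Related values appeared outside the named red pulp class. Spleen T cells held Vcam1 at 74.3 (WT) and 274 (KO) CPM, and 3 unnamed spleen clusters held it at 583 to 1542 CPM. Each of these unnamed clusters had Vcam1, C1qa, C1qc and the red pulp markers Cd5l and Fcna among its leading genes. The part of red pulp macrophages or their RNA in these clusters was not tested. For every 100 Vcam1 UMIs, red pulp macrophages held 19.0 WT and 20.8 KO Mrc1 UMIs, T cells 21.1 and 24.3, and the unnamed clusters 21.5 to 33.7. For other members the proportion varied. For every 100 Vcam1 UMIs, Mertk was at 8.30 and 13.6 in red pulp macrophages, 0 and 5.54 in T cells and 5.67 to 6.91 in the unnamed clusters. Cd163 was at 6.31 and 5.11, 13.2 and 8.31, and 1.62 to 6.10. T cells held 38 WT and 325 KO Vcam1 UMIs, so the WT T cell proportions rest on few UMIs. No interval is given for these proportions, so no difference is read from them. How much of the T cell level was RNA of red pulp macrophages was not tested. Spleen monocytes had 0 members lower and 0 higher of 6 (2.01% and 1.4% of 11979 genes), with Axl at 11.6 and 22.4 CPM and Vcam1 at 13.9 and 25.9 CPM.

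WT macrophages of the organs differed in which members they carried. C1q-high tumour macrophages exceeded red pulp macrophages by 10.6-fold in Gas6, 11.8-fold in Pf4, at least 72.7-fold in Stab1 and at least 28.7-fold in Fcrls, where red pulp counts of 0 were set to 3 UMIs per class. They were below them by 79.6-fold in Cd163, 10.8-fold in Vcam1, 4.11-fold in Axl and 2.62-fold in Mertk. Mrc1 (log2 ratio −0.12 [−0.32, 0.09]) and Igf1 (0.31 [−0.00, 0.63]) had intervals that included 0. These ratios compare whole classes and not single macrophages. With cells thinned to 2000 UMIs, 43.2% of WT red pulp cells had no member UMI, against 4.12% of WT C1q-high cells. The part of other cells in the red pulp class in these ratios was not tested. The red pulp Pf4 level behind the 11.8-fold difference came from 4 of 151 cells. Gas6, Fcrls and Stab1, which had the lowest KO to WT ratios within C1q-high macrophages though not all over all phagocytes, had 0 to 6 UMIs in red pulp macrophages.

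The wider pathway was followed in 5 further lists, which had been drawn up with earlier results of these data known. In C1q-high macrophages, 3 of 14 genes of phosphatidylserine recognition and bridging were at least 2-fold lower in KO, with 0 higher (median −0.17). Over all genes in that class 9.95% were lower and 5.44% higher, with a median of −0.13. They were Cd300lb (29.9 and 8.34 CPM), an activating lipid receptor, and the scavenger receptors Cd36 (252 and 104 CPM) and Msr1 (373 and 166 CPM). The engulfment machinery had 1 of 11 lower, Dock1 (34.2 and 10.7 CPM), which activates Rac at the phagocytic cup, and a median of 0.03. Of 19 genes of digestion and cholesterol efflux 1 was lower, the lipid exporter Abca1 (254 and 67.9 CPM), and 2 were higher, the transglutaminase gene Tgm2 (103 and 241 CPM) and the liver X receptor gene Nr1h3 (28.0 and 64.3 CPM). The counts for engulfment and for lower digestion genes were near or below the share over all genes.

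Of the other resident macrophage genes, a list drawn up with results of these data known, 7 of 12 were at least 2-fold lower and 0 higher (median −1.16), against 9.95% lower, 5.44% higher and a median of −0.13 over all genes. The largest ratios were those of the carbonyl reductase gene Cbr2 (199 and 2 UMIs, −4.49 [−7.55, −2.62]), the transporter gene Slco2b1 (52 and 1 UMIs, −3.56 [−8.89, −1.01]) and the lysophospholipid receptor gene Gpr34 (77 and 2 UMIs, −3.12 [−6.19, −1.22]). Among binding partners of the members, 1 of 11 was lower, the Igf-binding gene Igfbp4 (79.2 and 16.7 CPM), and 3 were higher. These were the integrin genes Itgb7 (5.66 and 35.7 CPM) and Itga4 (99.4 and 201 CPM), whose product binds Vcam1, and Hp (5.39 and 31.0 CPM), whose complex with haemoglobin binds Cd163. T cells also make integrin alpha-4 and beta-7, and the T cell marker sum given above was higher in the KO class. Over all tumour phagocytes Itga4 was higher in KO too, at 163 (WT) and 410 (KO) CPM. The part of T cell RNA in the Itga4 and Itgb7 levels was not tested.

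Over all tumour phagocytes these lists gave 2 of 16 lower for phosphatidylserine recognition, Thbs1 (2180 and 562 CPM) and Cd36 (354 and 97.8 CPM), and 1 higher, Marco (8 and 14 UMIs). Engulfment had 1 of 14 lower (Bcar1, 20 and 5 UMIs), digestion 1 of 19 (Abca1), other resident genes 6 of 14, led by Slco2b1, Cbr2 and Folr2, and partners 2 of 12 lower (Igfbp4, Igf2r) and 2 higher (Itga4, Sparc). Over all genes 6.94% were lower and 5.16% higher there, so the counts for engulfment and digestion were near the background, and the interval of Marco [−0.02, 2.79] included 0. In red pulp macrophages the lists gave 3 of 14 lower for recognition (Timd4, Anxa1 and Havcr2), 0 of 11 for engulfment, 0 lower and 1 higher (Rxra) of 16 for digestion, 1 lower (Ccl24) and 1 higher (Slco2b1) of 8 for other resident genes, and 2 lower (Itgb7, Adam10) of 8 for partners. Over all genes 3.77% were lower and 6.41% higher there, and the intervals of Timd4 [−2.68, 0.20] and Itgb7 [−2.60, 0.31] included 0. Slco2b1, 1 of the lowest genes in the KO tumour, was at 44.0 (WT) and 102 (KO) CPM in red pulp macrophages.

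Across 40 profiles (cell classes by library with 50 or more cells) the genes most like the mean of the 10 members were Slc7a2 (Pearson r = 0.94), Abcc3 (0.92), C1qa (0.91), C1qc (0.90), Ppbp (0.89), Kcnk13 (0.89), Trim47 (0.87), Itga9 (0.86), Tmem65 (0.85) and Ccl24 (0.85). The profiles share libraries, so r is a description. They also join Arg1 and C1q-high cells in the same macrophage class, so a high r need not mean the same cells. In WT, Ppbp had 2964 UMIs in Arg1 and 13 in C1q-high macrophages, whereas Gas6 had 6 and 690. Among the nearest genes to single members were Ppbp for Gas6 (0.94), Abcc3 for Mertk (0.95) and Igf1 (0.89), Acp2 for Axl (0.88), C3ar1 for Stab1 (0.92), Kcnj16 for Cd163 (0.87), Folr2 for Fcrls (0.88), C1qb for Pf4 (0.85) and Marco for Vcam1 (0.90). Among the members, Mertk with Igf1 (0.93) and Axl with Mrc1 (0.89) were the most alike pairs, and Stab1 with Cd163 (−0.19) the least.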

How the data were processed

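The deposited matrices hold whole-number UMI counts per gene and cell barcode, not normalized; the authors' barcode and feature lists were used as names. The file headers name Cell Ranger 6.0.0. Cell Ranger 3.1, Seurat 3.1.4, Seurat 3.1, mm10 and GRCm38 are listed per the submitters' processing notes. The annotation, and whether counting used the strand, are not given in the sources used here. This bears on members overlapped by an antisense gene in GENCODE M21 (GRCm38), which gave the gene positions: Gas6 by Tmem255b, Stab1 by Nt5dc2, Mertk by Gm14011, Igf1 by Igf1os and Vcam1 by Gm43109.

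A barcode passed with 200 or more genes, 500 or more UMIs and no more than 10% mitochondrial UMIs. That limit removed 685 and 1420 tumour and 543 and 792 spleen barcodes (WT and KO). Doublets were called with Scrublet in scanpy 1.11.5, which left out 5.70% of spleen WT and 3.28% of spleen KO cells. In the tumour it marked 0.149% and 0.132%, so the top scores, at 0.8% per 1000 barcodes, were left out instead (3.85% and 4.90%). Each organ was clustered over both genotypes without integration (2000 variable genes without members and pathway genes, 30 components, 15 neighbours, Leiden resolution 1, leidenalg 0.10.2, igraph 0.11.9). Clusters were named from 20 marker lists, with limits set after the clusters had been seen, and clusters without 3 markers or led by another class stayed unnamed.

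UMIs were summed per class and library and scaled to counts per 1000000 UMIs (CPM), which were computed here. Ratios have exact 95% binomial intervals and levels exact Poisson intervals (scipy 1.17.1). Genes with 20 or more UMIs over both libraries and a 2-fold difference were counted, and a count of 0 was bounded by a floor of 3 counts over the class. In the weighting by cluster mix a count of 0 stayed 0. The script was tested on simulated data.

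The members and lists were chosen with earlier results of these data known. All members are named. From each pathway list, up to 3 genes per direction with the largest ratio are named, and likeness was read among genes reaching 20 CPM in a class, as Pearson's r of log2(CPM + 1). Values of some genes under these rules are not reported here. Alternatives are given in the closing section.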

Additional observations from a re-analysis of the deposited data

Results flagged for a closer look

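In 4 genes the KO to WT difference had opposite signs in the macrophages of the organs, with counting intervals on either side of 0 under the settings used here. Mertk had a log2 ratio of −0.71 in tumour C1q-high macrophages and 1.27 in spleen red pulp macrophages. Mrc1 had −2.0 and 0.69, Igf1 −1.76 and 0.88, and Vcam1 −0.87 and 0.56. Over the other settings the lowest spleen values were 0.41 for Mertk, 0.07 for Mrc1, −0.29 for Igf1 and 0.03 for Vcam1, and Vcam1 was at −0.01 in the shallower C1q-high cluster. Macrophage markers were also higher in the KO red pulp class, with a median log2 ratio of 0.51, and their part in the spleen values was not tested. With 1 library per group the difference between organs was not tested.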

How the results depend on the processing

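No paired analysis was possible because each group has 1 pooled library. The alternatives were a mitochondrial limit of 20% or none, doublets kept, cells thinned to 1000 UMIs, equal weight for each cell, centring on the median gene, Leiden resolutions of 0.5 and 2, another seed, members allowed in the clustering, a 1.5-fold threshold and no filter on low counts. Those for C1q-high macrophages, with each cluster alone, were chosen after seeing the data. Members lower in KO numbered 8 to 9 in tumour phagocytes, 6 to 9 in all macrophages and 6 to 8 in C1q-high macrophages. With the WT mix of clusters, 7 members were lower in place of 9, with Cd163 included only because its KO counts of 0 were left at 0. In red pulp macrophages 1 member was lower in place of 0 after thinning to 1000 UMIs, with equal weight for each cell and at resolution 2. In spleen monocytes 1 was lower at the 1.5-fold threshold, with doublets kept, at resolution 2 and with members allowed in the clustering. There 4 of 6 were higher at the 1.5-fold threshold, 2 of 3 were at least 2-fold higher after thinning to 1000 UMIs (Axl at 1.30 and Mrc1 at 1.06, with Igf1 at 1.80 on under 20 UMIs) and 1 of 6 with members allowed, in place of 0. Mrc1 in tumour monocytes turned from 1.34 to −2.05 (limit of 20%), −0.64 (no limit), −1.0 (doublets kept), −0.93 (another seed) and −0.92 (members allowed). Of 543 values over 46 gene results, 435 lay within the reported counting interval, 103 did not and 5 reversed, and 527 kept their sign. No value was obtained for tumour monocytes after thinning or at resolution 0.5, for red pulp macrophages at resolution 0.5, or for C1q-high macrophages at the limit of 20%. Depth limits Gas6, Stab1 and Fcrls in the spleen and Cd163 in the tumour, and red pulp cells were shallow.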

Other observations

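Outside macrophages the members marked a few other classes. Mrc1 was found in type 2 dendritic cells, at 84.3 (WT) and 51.9 (KO) CPM in the tumour and at 58.2 and 74.5 CPM in the spleen. The same cells held Axl at 43.1 and 42.4 CPM in the tumour, and Vcam1 at 0 and 7.07 CPM (0 and 26 UMIs). Cd163 was found in tumour plasmacytoid dendritic cells, at 10.1 and 8.61 CPM (9 and 10 UMIs). Spleen migratory dendritic cells, only 27 WT and 31 KO cells, held Vcam1 at 142 and 290 CPM (26 and 72 UMIs) while Mrc1 was at 1 UMI in each. No interval is given for that proportion either, so no difference from the red pulp proportions is read.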
